A study of Homo sapiens with 6 samples.

Results

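Expression was described for 8 genes that are active in the fetal liver, in embryonic cells or in many tumours and are mostly turned down in adult tissue: the RNA-binding protein genes IGF2BP1, IGF2BP2, IGF2BP3, LIN28A and LIN28B, the chromatin protein genes HMGA1 and HMGA2, and the transcription factor gene ARID3A. They were taken by gene name from tables of 62754 genes, and each name matched 1 row. The rule that picks them uses gene names and no measured value, though earlier results of these data were known when the set was chosen. Of the 8 genes, 6 reached the level needed for a test, and LIN28A and LIN28B did not.

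LIN28 proteins bind the precursors of the let-7 microRNAs and block their maturation. Mature let-7 pairs with sites in the 3′ untranslated region (3′ UTR) of target mRNAs and lowers their output, and the IGF2BP, HMGA and LIN28 genes and ARID3A are known let-7 targets. In red blood cell precursors, LIN28B, IGF2BP1, IGF2BP3 and HMGA proteins are known for higher levels at the fetal stage, when γ-globin is made. Forced expression of LIN28B or IGF2BP1 in adult erythroid cells is known to raise γ-globin.

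RNA was sequenced from HUDEP-2, a human line of early red cell precursors that divides without limit and makes mostly adult haemoglobin. The 3 libraries of the MEN1 group came from cells given a lentiviral hairpin RNA (shRNA) against MEN1, the gene of the chromatin scaffold protein menin, labelled as MEN1 knockdown. The 3 control libraries came from cells given a non-targeting shRNA, labelled WT. Only 1 MEN1 hairpin is named, so loss of menin and unintended targets of the hairpin cannot be told apart. Cells of both groups grew in serum-free medium with erythropoietin at 3 units/ml, stem cell factor at 50 ng/ml, 1 µg/ml of doxycycline and 1e-06 M dexamethasone. Both groups received puromycin at 2 µg/ml for 48 h, beginning 24 h after infection, and were collected at 72 h. The titles call the replicates biological but do not describe separate cultures, so p-values measure the spread between these samples only.

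Levels are given as TPM, a gene's transcripts in every 1000000 of the library, which is scaled for transcript length and library size, as mean ± SD with n = 3 libraries per group. Depth, inferred from the tables, was 18400000 to 35800000 read pairs per library. MEN1 itself stood at 6.29, 6.44 and 6.88 TPM in the MEN1 shRNA libraries and at 41.2, 39.6 and 37.1 TPM in the controls, a remaining level of 16.6% (log2 fold change -2.42, adjusted p = 8.54e-06). All 12 erythroid marker genes examined were at 1 TPM or more in every library, and their summed level was 98280 to 110500 TPM in the knockdown and 56660 to 62790 TPM in the controls. Most of this sum was the globin genes HBA1, HBA2 and HBB, while the erythroid factor gene KLF1 (525 to 544 against 524 to 594 TPM) and the erythropoietin receptor gene EPOR (96.6 to 111 against 98.4 to 106 TPM) overlapped between the groups. Of 5 megakaryocyte markers PF4 and PPBP were at 0 in every library, but the sum, nearly all ITGA2B, was 16.6 to 21.1 TPM against 31.6 to 36.4 TPM in the controls. Of 4 mast cell markers, the tryptase genes TPSAB1 and TPSB2 made up nearly all of a sum of 725 to 885 TPM against 1037 to 1307 TPM in the controls. The 6 neutrophil and monocyte markers summed to 0.525 to 1.09 TPM against 3.45 to 5.23 TPM, and the 3 T cell markers, nearly all CD3D, to 3.09 to 5.66 TPM against 0.0709 to 0.816 TPM. The 4 B cell markers summed to under 1 TPM in every library, with MS4A1 at 0. Apart from the B cell sum, which overlapped between the groups, these sums differed between the groups, and their part in the results on the 8 genes was not tested. In bulk RNA, fewer cells of a type and less RNA per cell cannot be told apart.

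With the MEN1 shRNA, IGF2BP2, HMGA1 and HMGA2 fell and IGF2BP3 rose past an adjusted p of 0.05, while IGF2BP1 and ARID3A were not called. These 3 lower and 1 higher of 6 genes tested have to be read against a wide response: 53.6% of all 14294 genes tested were called, 22.1% as higher and 31.5% as lower. A call alone therefore sets none of these genes apart. The lean toward lower calls depended on the scaling. With TPM rescaled by median-of-ratios size factors, 3758 genes were higher and 3838 lower. With the deposited mean coverage of each gene scaled to a sum of 1000000, 2943 were higher and 4724 lower. IGF2BP2 and HMGA2 were called and at least 2-fold lower on the fitted scale, as were 6.9% of all genes tested, and none of the 6 was called and at least 2-fold higher, as were 4.96%. HMGA2 entered the test only through the controls, where it was higher. Its log2 fold change ran from -1.53 to -0.764 over the alternatives, so 2-fold was not reached in all of them. The libraries of the groups did not overlap for the same 4 genes, nor for 61.8% of all genes tested (25.8% higher and 35.9% lower in the knockdown). The median absolute log2 fold change of all genes tested was 0.37, which IGF2BP1 and ARID3A did not reach and the others exceeded. MEN1 shRNA replicate 1 lay nearer to the controls over all genes, with a mean correlation of 0.953 with the control libraries against 0.936 and 0.934 for the other knockdown libraries. IGF2BP2, HMGA1, HMGA2 and ARID3A all had their knockdown value closest to the controls in that library.

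The IGF2BP genes encode 3 closely related proteins that bind mRNA, many of them at N6-methyladenosine (m6A), and stabilise it or steer its translation. With the MEN1 shRNA, IGF2BP2 fell to 20.3% of its control level, IGF2BP3 rose 1.49-fold, and IGF2BP1 did not pass the test. IGF2BP2 and IGF2BP3 thus moved in opposite directions in the same cells.

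IGF2BP2 (ENSG00000073792, GRCh38 chr3:185643130-185825042, minus strand) stood at 22.8, 17.4 and 18.0 TPM in the MEN1 shRNA libraries and at 100.4, 95.0 and 91.8 TPM in the control libraries. All 3 knockdown libraries lay far below all 3 controls. The means were 19.4 ± 2.98 and 95.7 ± 4.32 TPM, a 4.93-fold lower level. On the log2(TPM + 1) scale, on which every fold change here was fitted with limma, the difference was -2.25 (SE 0.11, 95% interval -2.50 to -2.01, adjusted p = 1.66e-05). Among the 14294 genes tested, 52 (0.364%) had a lower log2 fold change. The estimated number of read pairs on the gene was 165 to 301 in the knockdown and 1101 to 1715 in the controls.

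IGF2BP3 (ENSG00000136231, chr7:23310209-23470491, minus strand) stood at 45.8, 44.8 and 46.01 TPM in the knockdown and at 30.1, 34.0 and 27.6 TPM with the control shRNA. Every knockdown library lay above every control, and the knockdown libraries lay closer to one another (45.5 ± 0.660 TPM) than the controls did (30.6 ± 3.22 TPM). The log2 fold change was 0.56 (SE 0.084, 95% interval 0.37 to 0.76, adjusted p = 0.000979). The 3′ end of IGF2BP3 overlaps MALSU1, a mitochondrial ribosome assembly gene on the opposite strand (chr7:23298739-23311729). Whether reads were assigned by strand is not given in the sources used here. MALSU1 stood at 21.0, 20.8 and 16.7 TPM in the knockdown and 23.1, 31.1 and 20.1 TPM in the controls, with a log2 fold change of -0.32 and an adjusted p of 0.14, the sign opposite to that of IGF2BP3.

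IGF2BP1 (ENSG00000159217, chr17:48997385-49056145, plus strand) stood at 5.96, 5.49 and 6.14 TPM in the knockdown and at 6.75, 5.86 and 7.02 TPM in the controls. The groups overlapped, since 2 knockdown libraries lay above the lowest control. The means were 5.86 ± 0.337 and 6.54 ± 0.607 TPM, a log2 difference of -0.13 with an SE of 0.11 (adjusted p = 0.334). Its 95% interval, -0.39 to 0.12, leaves out a change as large as that of either paralog. About 194 to 333 read pairs lay behind each IGF2BP1 value.

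**Figure D1:**
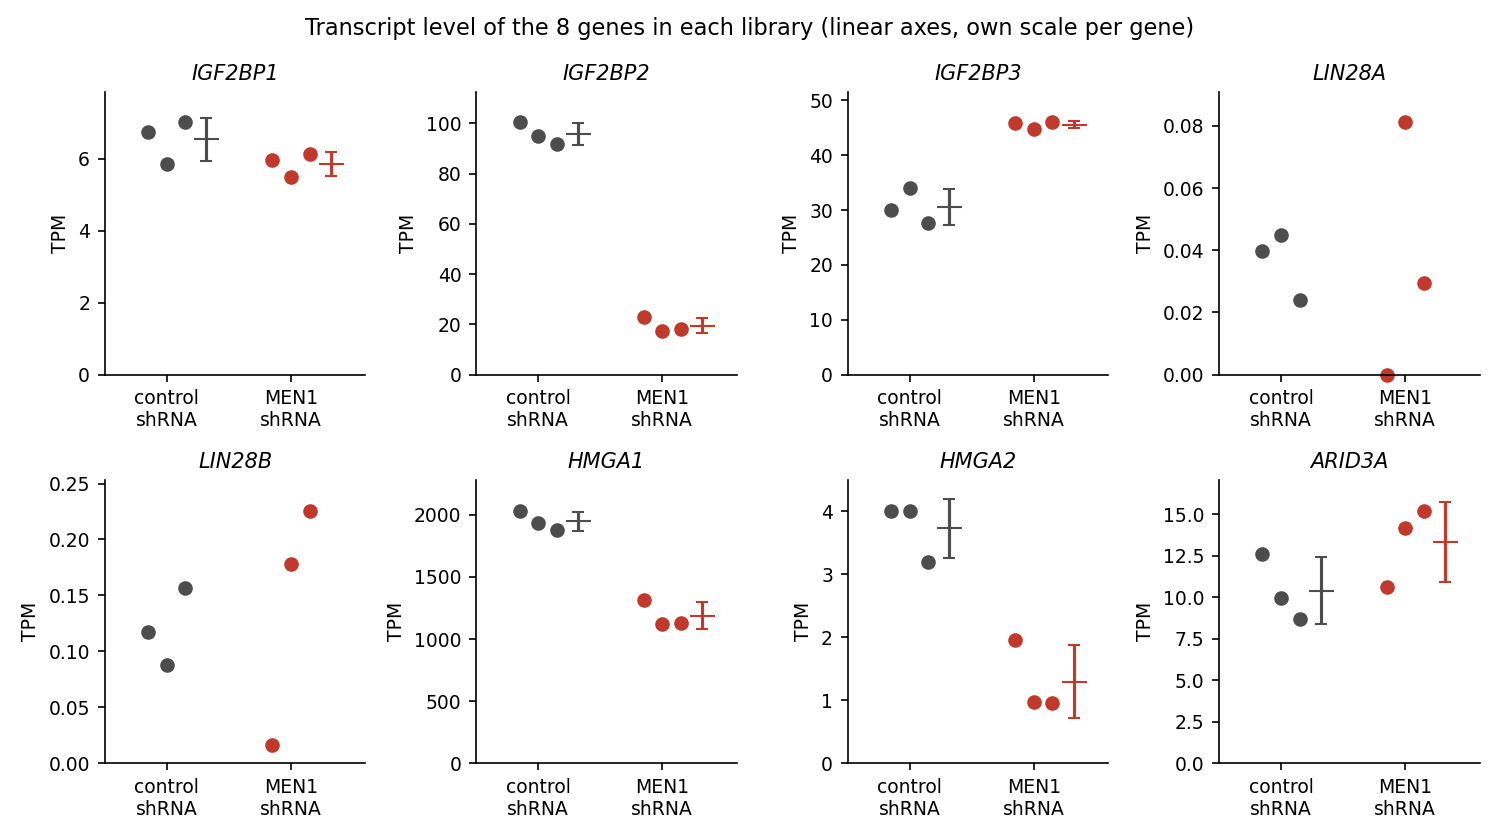
Transcript level in TPM (vertical axes, linear, each gene on its own scale) of the 8 genes in the 3 control shRNA libraries (grey) and the 3 MEN1 shRNA libraries (red). Each point is a library, and crosses with bars give the mean ± SD, left out for LIN28A and LIN28B. IGF2BP2, HMGA1 and HMGA2 show every knockdown point below every control point, IGF2BP3 shows the reverse, and the points of IGF2BP1 and ARID3A overlap.

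Since TPM is scaled for length, the 3 paralogs can be added. Their sum was 67.7 to 74.6 TPM in the knockdown and 126.5 to 137.2 TPM in the controls. IGF2BP2 made up 72.1 ± 1.45% of the sum in the controls and 27.3 ± 2.83% in the knockdown. IGF2BP3 made up 23.0 ± 1.93% in the controls and 64.4 ± 2.60% in the knockdown. The leading paralog was therefore IGF2BP2 in every control library and IGF2BP3 in every knockdown library. IGF2BP1 made up 4.94 ± 0.602% and 8.28 ± 0.413%, a larger share of a smaller sum.

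TPM sums the isoforms the authors' quantification assigned to a gene, so the shares were also computed from the deposited mean coverage of the whole gene, a choice made after seeing the data. By coverage the IGF2BP2 share was 76.3 ± 1.23% in the controls and 33.3 ± 5.07% in the knockdown. That of IGF2BP3 was 15.5 ± 1.76% and 48.9 ± 4.32%, and that of IGF2BP1 was 8.23 ± 0.570% and 17.8 ± 1.03%. The order of the paralogs was the same on both scales, while IGF2BP1 carried a larger part by coverage.

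**Figure D2:**
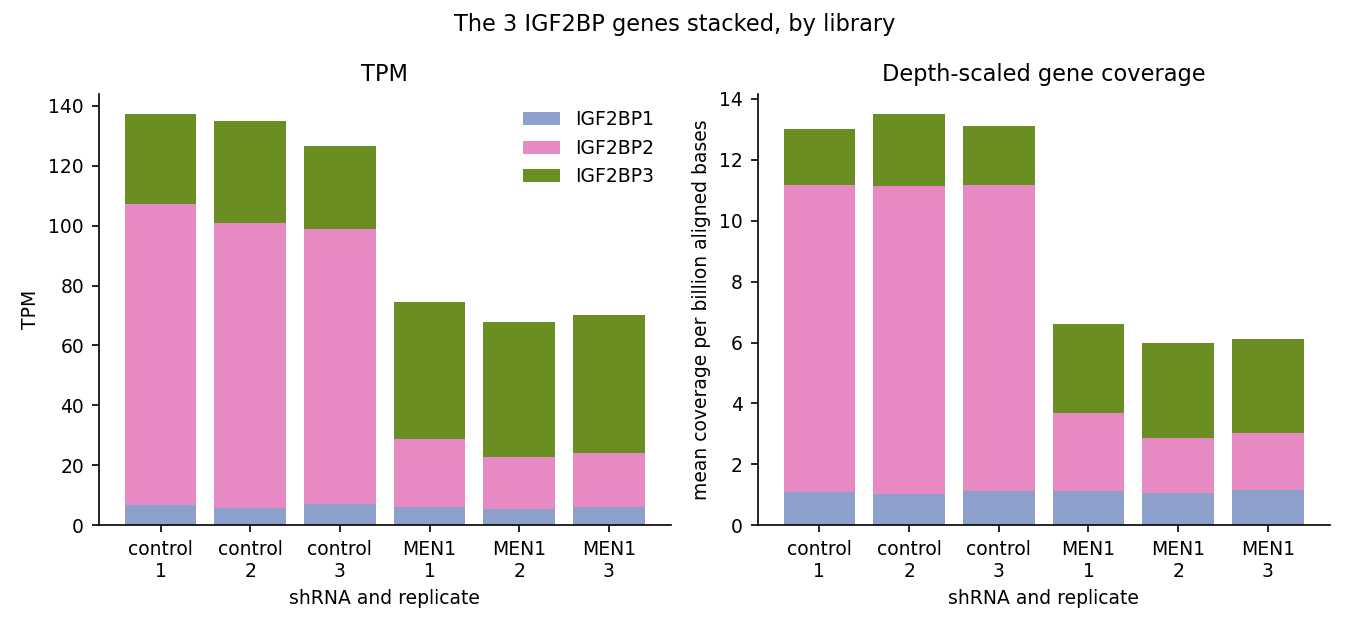
Levels of IGF2BP1, IGF2BP2 and IGF2BP3 stacked for each of the 6 libraries, on the left in TPM and on the right as mean gene coverage scaled to the aligned bases of the library. On both scales IGF2BP2 is the largest block in the 3 control libraries and IGF2BP3 in the 3 MEN1 shRNA libraries, and the whole stack is lower with the MEN1 shRNA.

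Promoter sequences are shown for IGF2BP2 and IGF2BP3, the paralogs that moved in opposite directions, and for HMGA1, which fell. They come from RefSeq (GRCh38.p14), run from 250 bases before to 50 bases after the annotated start, and are written 5′ to 3′ on the gene's strand. Entries matched 4 of the 8 genes, namely IGF2BP2, IGF2BP3, LIN28B and HMGA1. Capitals mark 3 motifs searched on both strands: the E-box CACGTG, the GC box GGGCGG and the GATA motif AGATAA. Each window spans the start of the gene as the deposited tables place it, and overlapping matches were counted separately.
IGF2BP2, chr3:185824993-185825292, minus strand: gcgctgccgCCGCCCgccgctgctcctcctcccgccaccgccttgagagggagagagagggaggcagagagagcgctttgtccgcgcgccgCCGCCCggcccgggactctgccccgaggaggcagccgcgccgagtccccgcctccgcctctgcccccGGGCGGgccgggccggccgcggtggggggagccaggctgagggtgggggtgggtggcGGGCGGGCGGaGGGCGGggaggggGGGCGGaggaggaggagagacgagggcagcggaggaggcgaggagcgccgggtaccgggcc
IGF2BP3, chr7:23470442-23470741, minus strand: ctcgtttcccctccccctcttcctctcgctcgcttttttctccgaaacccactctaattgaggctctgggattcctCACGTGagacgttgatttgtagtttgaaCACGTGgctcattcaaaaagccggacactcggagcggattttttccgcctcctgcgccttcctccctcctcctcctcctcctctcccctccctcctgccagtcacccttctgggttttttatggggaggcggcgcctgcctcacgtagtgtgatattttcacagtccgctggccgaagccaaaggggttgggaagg
HMGA1, chr6:34236623-34236922, plus strand: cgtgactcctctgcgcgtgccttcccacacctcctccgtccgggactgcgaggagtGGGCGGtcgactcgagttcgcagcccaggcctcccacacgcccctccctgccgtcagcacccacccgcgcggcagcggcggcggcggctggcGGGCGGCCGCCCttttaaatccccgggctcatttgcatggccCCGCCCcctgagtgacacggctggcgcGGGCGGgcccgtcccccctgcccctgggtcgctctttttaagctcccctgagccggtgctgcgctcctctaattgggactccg

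The IGF2BP2 window held 38 CpG dinucleotides, a GC content of 80.7%, 7 GC boxes and no E-box. The IGF2BP3 window held 17 CpG dinucleotides, a GC content of 56.3%, 2 E-boxes and no GC box. The HMGA1 window held 33 CpG dinucleotides, a GC content of 72.0% and 5 GC boxes. Among 35116 promoter windows of the same length, the median was 14 CpG dinucleotides and a GC content of 58.7%. GC boxes were found in 45% of those windows, E-boxes in 7.26% and the GATA motif in 10.3%. The first LIN28B window, of a gene too low to compare, held 37 CpG dinucleotides, a GC content of 73.0% and 2 GC boxes. Its second listed start (chr6:104956857-104957156) had a window with 8 CpG dinucleotides, a GC content of 39.0%, 1 E-box and 2 GATA motifs. No other window listed for these genes held the GATA motif. IGF2BP2 has a second listed start (chr3:185821093-185821392) whose window held 3 CpG dinucleotides and none of the motifs. The second listed start of HMGA1 (chr6:34238541-34238840) had a window with 5 CpG dinucleotides, a GC content of 53.0% and none of the motifs. A motif match is a description of the letters and shows no binding.

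LIN28A and LIN28B, the blockers of let-7 maturation, were too low to compare in either group. LIN28B (ENSG00000187772, chr6:104936616-105083332, plus strand) stood at 0.0160, 0.178 and 0.226 TPM in the knockdown and at 0.117, 0.0880 and 0.157 TPM in the controls, from at most 4 estimated read pairs in any library. The knockdown libraries included both the lowest and the highest value. LIN28A (ENSG00000131914, chr1:26410817-26429728, plus strand) was listed at 0 in 1 knockdown library and stood at 0.0812 and 0.0294 TPM in the others, against 0.0397, 0.0449 and 0.0239 TPM in the controls. Its estimated read pairs also numbered at most 4 per library. A difference in either gene was not detectable at this depth, and no fold change is given.

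HMGA1 and HMGA2 encode small proteins that bend AT-rich DNA through AT-hook motifs and help open chromatin. Both fell with the MEN1 shRNA, from very different starting levels: HMGA1 ranked 81 by mean TPM among all 62754 genes and HMGA2 ranked 11721.

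HMGA1 (ENSG00000137309, chr6:34236873-34246231, plus strand) stood at 1313, 1122 and 1130 TPM in the knockdown and at 2033, 1934 and 1881 TPM in the controls. All knockdown libraries lay below all controls, the nearest being MEN1 shRNA replicate 1. The means were 1188 ± 109 and 1949 ± 77.2 TPM, or 61% of the level in the controls. HMGA1 had a log2 fold change of -0.72 (SE 0.076, 95% interval -0.89 to -0.54, adjusted p = 0.000204). At least 10049 estimated read pairs lay on the gene in each library. HMGA1 has processed pseudogenes, whose 8 rows summed to 0.483% to 0.712% of the HMGA1 level in every library. The microRNA row MIR6835, which lies inside HMGA1 on the same strand, stood at 3.07 to 5.30 TPM in the knockdown and 4.11 to 6.21 TPM in the controls (log2 fold change -0.22, adjusted p = 0.412). Reads of this row and of HMGA1 may be shared.

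HMGA2 (ENSG00000149948, chr12:65824460-65966291, plus strand) stood at 1.96, 0.967 and 0.951 TPM in the knockdown and at 4.01, 4.00 and 3.19 TPM with the control shRNA. The groups did not overlap, and MEN1 shRNA replicate 1 lay between the other knockdown libraries and the controls. The means were 1.29 ± 0.579 and 3.73 ± 0.469 TPM, a 2.89-fold lower level. The log2 fold change was -1.07 (SE 0.20, 95% interval -1.53 to -0.61, adjusted p = 0.00285), and adding 1 to values this low understates the change. HMGA2 reached 1 TPM in 4 libraries, among them all 3 controls, so it entered the test through the group in which it was higher. The values rest on 34 to 83 estimated read pairs in the knockdown and 133 to 232 in the controls. HMGA2 made up 0.191 ± 0.0192% of the HMGA1 and HMGA2 sum in the controls and 0.107 ± 0.0369% in the knockdown.

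ARID3A, a DNA-binding protein of the AT-rich interaction domain family, did not pass the test (ENSG00000116017, chr19:925781-975939, plus strand). It stood at 10.6, 14.2 and 15.2 TPM in the knockdown and at 12.6, 9.93 and 8.69 TPM in the controls. The groups overlapped through MEN1 shRNA replicate 1 and control replicate 1. The means were 13.3 ± 2.42 and 10.4 ± 2.00 TPM, with a log2 fold change of 0.33 (SE 0.17, 95% interval -0.064 to 0.72, adjusted p = 0.14). Leaving out MEN1 shRNA replicate 1 gave 0.47 with an adjusted p of 0.0404, and by gene-level coverage it was 0.52 with an adjusted p of 0.0468. Over all alternatives the adjusted p ran from 0.0404 to 0.354, so the call on ARID3A depends on the setting.

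**Figure D3:**
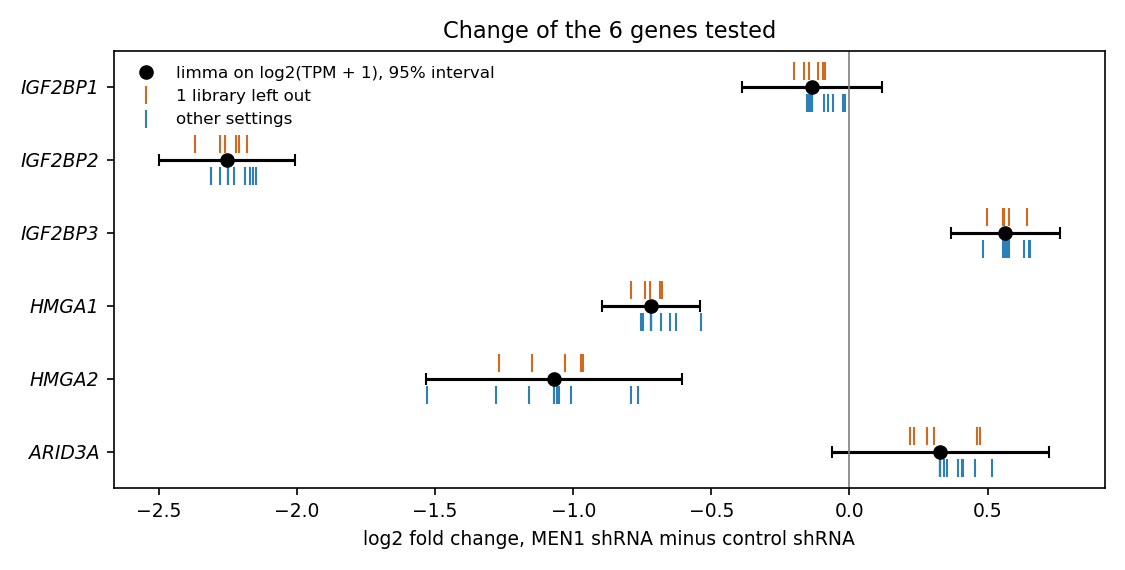
Log2 fold change of log2(TPM + 1), MEN1 shRNA minus control shRNA, for the 6 genes tested, with the limma estimate (black point) and its 95% interval (bar). Brown-orange ticks are the estimates with 1 library left out and blue ticks those with other settings. The intervals of IGF2BP2, IGF2BP3, HMGA1 and HMGA2 lie wholly on 1 side of 0, and those of IGF2BP1 and ARID3A include it.

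In the controls the order of levels in TPM was HMGA1, IGF2BP2, IGF2BP3, ARID3A, IGF2BP1, HMGA2, LIN28B and LIN28A. With the MEN1 shRNA the order was the same except that IGF2BP3 stood above IGF2BP2. Neighbours in this order did not overlap between libraries of a group, apart from LIN28B and LIN28A with the MEN1 shRNA, and the handful of reads on these last genes does not separate them in the controls either.

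The fetal globin genes, which forced LIN28B or IGF2BP1 expression is known to raise, were read in the same libraries. HBG1 stood at 307 ± 11.1 TPM in the knockdown and 53.3 ± 5.76 TPM in the controls (log2 fold change 2.51, adjusted p = 8.54e-06), and HBG2 at 462 ± 149 and 129 ± 8.16 TPM. BCL11A, the γ-globin repressor, stood at 3.04 ± 2.12 and 19.4 ± 1.97 TPM (log2 fold change -2.45, adjusted p = 0.000486). HBG2 rose with a log2 fold change of 1.79 (adjusted p = 0.000229). In the same libraries LIN28A and LIN28B were too low to compare, IGF2BP1 was not called, IGF2BP2 was lower and IGF2BP3 was higher. Whether any of the 8 genes had a part in the globin change was not tested. HBG1 and HBG2 are near-identical copies, so the division of reads between them is uncertain.

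The 8 genes were picked by name and not as let-7 targets. They are known let-7 targets all the same, so the microRNA and its sites in these genes are shown. The 9 mature let-7 forms listed by RefSeq, miR-98 included, share 1 seed (bases 2 to 8), in capitals. They are represented by let-7a (chr9:94175962-94175983, plus strand) and let-7g (chr3:52268336-52268357, minus strand), which differ outside the seed.
hsa-let-7a-5p: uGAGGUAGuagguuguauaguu
hsa-let-7g-5p: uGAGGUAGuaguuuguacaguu

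A site was counted where the 3′ UTR of the gene's GENCODE v29 transcript held CTACCTC, the 7 letters that pair with the seed, on the transcript strand. The first site of each gene is given with 20 bases before it and 1 base after it, the match in capitals. An a after the match makes the longer 8-base form.
IGF2BP1, chr17:49051056-49051083, plus strand: aatgctgtgtgcgaagtaaaCTACCTCa
IGF2BP2, chr3:185644220-185644247, minus strand: agaaaaacacacagaagaagCTACCTCa
IGF2BP3, chr7:23311795-23311822, minus strand: aaacgtgcatttttactcaaCTACCTCa
LIN28A, chr1:26427343-26427370, plus strand: ggagtgcacagcctattgaaCTACCTCa
LIN28B, chr6:105078807-105078834, plus strand: cctttacccggttgcaaagtCTACCTCa
HMGA1, chr6:34245824-34245851, plus strand: atttttcctctgttcacaaaCTACCTCt
HMGA2, chr12:65963293-65963320, plus strand: ggggcgccaacgttcgatttCTACCTCa
ARID3A, chr19:974506-974533, plus strand: cgcctgctgcctatctctgtCTACCTCa

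All 8 genes held at least 1 match. IGF2BP1, LIN28B and HMGA2 held 4 each, ARID3A held 2, and IGF2BP2, IGF2BP3, LIN28A and HMGA1 held 1. Among 10938 tested genes with a 3′ UTR model, 9.81% held at least 1. Long 3′ UTRs hold more matches by length alone. Among tested genes with a 3′ UTR within 25% of the same length, 8.56% held a match for HMGA1 and 30.4% for IGF2BP1, the shortest and longest of the 8. The site count did not order the changes: IGF2BP1 and HMGA2, with 4 matches each, had log2 fold changes of -0.13 and -1.07, and IGF2BP2 and IGF2BP3, with 1 each, had -2.25 and 0.56. Mature let-7 was not measured in these poly(A)-selected libraries.

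Genes of the pathways around the 8 genes were described by lists, each read against the 53.6% of all tested genes that were called and their median log2 fold change of -0.07. The lists were compiled from general knowledge with earlier results of these data known, and they share some genes. Counts of the let-7 and microRNA machinery came to 7 higher and 6 lower of 18 tested (72.2% called), with a median of 0.15. AGO2, the slicing Argonaute protein, rose from 55.7 ± 4.06 to 98.3 ± 5.55 TPM (a log2 fold change of 0.81, adjusted p = 0.000116). XPO5, which exports microRNA precursors, fell from 112 ± 6.42 to 62.0 ± 5.02 TPM (-0.85, adjusted p = 0.000106). DROSHA, the nuclear precursor-cutting enzyme, fell with a log2 fold change of -0.68 (adjusted p = 0.00017), and PRKRA, a Dicer partner, with -0.62 (adjusted p = 0.000427). The list was mixed within each step: DGCR8, the partner of DROSHA, rose with 0.37 (adjusted p = 0.00221), and AGO3, another Argonaute gene, fell with -0.63 (adjusted p = 0.00911).

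Other known let-7 targets moved both ways, with 9 higher and 9 lower of 31 tested (58.1% called) and a median log2 fold change of 0.03. MYC, the growth-driving transcription factor, fell from 232 ± 6.52 to 74.1 ± 15.5 TPM (a log2 fold change of -1.65, adjusted p = 6.4e-05). E2F5, a cell cycle factor, fell from 8.95 ± 0.703 to 2.2 ± 1.07 TPM (-1.68, adjusted p = 0.000506), and the GTPase gene NRAS fell with -1.15 (adjusted p = 5.22e-05). E2F2, an S-phase activator, rose from 19.1 ± 0.735 to 48.9 ± 2.41 TPM (1.31, adjusted p = 2.39e-05), and the nucleotide synthesis gene RRM2 rose with 0.76 (adjusted p = 0.000109). The let-7 targets other than the 8 genes thus showed no common direction.

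Proteins that work with the IGF2BP family or write, erase and read m6A were measured through 24 genes, all tested. Of these, 12 were lower and none higher by limma (50% called, median -0.20). At an unadjusted p under 0.05 the counts were 13 lower and 1 higher, and with TPM rescaled in other ways 9 to 10 were lower and 1 to 2 higher. METTL3, the m6A methyltransferase, fell from 51.4 to 26.9 TPM (a log2 fold change of -0.92, adjusted p = 0.00039). The demethylase gene ALKBH5 fell with -0.52 (adjusted p = 0.000466), and the writer complex gene ZC3H13 with -0.50 (adjusted p = 0.00063). SYNCRIP, an RNA-binding partner of IGF2BP1, fell with -0.52 (adjusted p = 0.000318). Writer and eraser genes were thus both among those that fell, but not all of either kind did. The writer gene METTL14 had 0.08 (adjusted p = 0.555) and the eraser gene FTO had -0.06 (adjusted p = 0.692).

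Among mRNAs known to be bound by IGF2BP proteins, 8 were lower and 2 higher of 12 tested (83.3% called, median -0.34). FSCN1, which bundles actin, fell from 110.5 ± 10.7 to 38.1 ± 3.24 TPM (a log2 fold change of -1.51, adjusted p = 3.1e-05). MARCKSL1, a membrane-associated actin regulator, fell with -0.67 (adjusted p = 0.000219), and MYC, described above, is also on this list. E2F1 rose with 0.87 (adjusted p = 9.48e-05). ACTB, the best-known ligand of IGF2BP1, had 0.07 with an adjusted p of 0.46. Of the lower genes, MYC and FSCN1 changed over 2-fold.

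**Figure D4:**
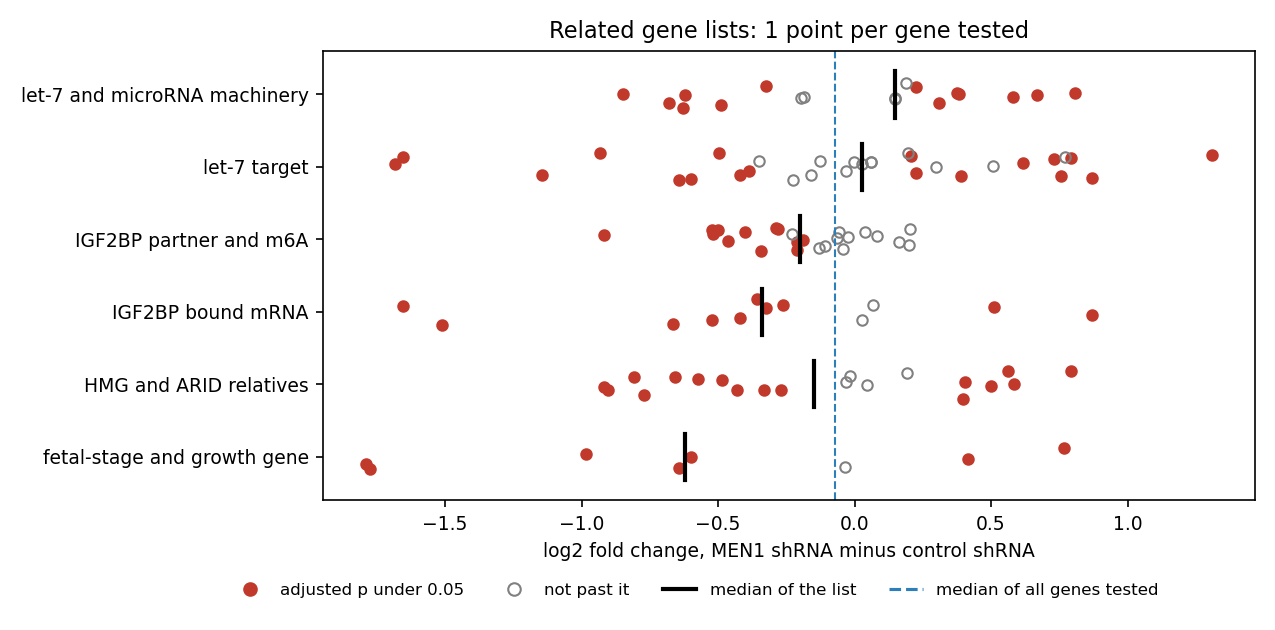
Log2 fold change (horizontal axis, MEN1 shRNA minus control shRNA) of each tested gene of 6 related lists. Red points have an adjusted p under 0.05 by limma, open points do not, black bars are list medians and the dashed line is the median of all genes tested. The let-7 targets spread to both sides, and the called genes of the IGF2BP partner and m6A list all lie below 0.

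Relatives of the HMGA and ARID genes gave 10 lower and 6 higher of 20 tested (80% called, median -0.15). HMGB1, an abundant DNA-bending protein gene, fell from 542 ± 18.8 to 317 ± 25.4 TPM (a log2 fold change of -0.77, adjusted p = 0.000103), while its relative HMGB2 rose from 1007 ± 26.8 to 1511 ± 75.5 TPM (0.58, adjusted p = 0.000158). HMGN3, a nucleosome-binding protein gene, fell with -0.81 (adjusted p = 5.18e-05). HMGB1 and the HMGN genes have processed pseudogenes that can share their reads. Paralogs of this family, like those of the IGF2BP family, thus moved in different directions.

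Of 18 genes known for fetal-stage expression or imprinted growth control, 8 were high enough to test, and 5 were lower and 2 higher (median -0.62). GRB10, an imprinted adaptor of the insulin receptor, fell from 49.4 ± 2.39 to 13.7 ± 1.21 TPM (a log2 fold change of -1.78, adjusted p = 1.66e-05). MEST, another imprinted gene, fell from 81.9 ± 3.77 to 23.4 ± 5.73 TPM (-1.79, adjusted p = 8.62e-05), and PEG3, an imprinted zinc finger gene, with -0.98 (adjusted p = 0.000735). INSR, the insulin receptor gene, rose from 11.1 to 19.6 TPM (0.77, adjusted p = 0.000187). IGF2 and H19, the namesake and a classic ligand of the IGF2BP proteins, were below the level needed for a test.

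For each tested gene, the 2 genes with the most similar pattern over the 6 libraries were found among 9894 genes, by the distance between log2(TPM + 1) values centred on each gene's mean, where a smaller distance is a closer pattern. IGF2BP2 lay closest to the nucleophosmin pseudogene NPM1P27 (distance 0.113) and to BIN2, a membrane-curving protein gene (0.123). Both were picked for a like pattern, so their log2 fold changes of -2.22 and -2.19 are no separate result. Reads of NPM1P27 may be shared with the parent gene. IGF2BP3 lay closest to the telomerase-associated TEP1 (0.0682) and to UBAP1 (0.0908), a subunit of an endosomal sorting complex. HMGA1 lay closest to the spindle gene SKA3 (0.0709) and the calponin gene CNN2 (0.0732). HMGA2 lay closest to the retinoic acid receptor gene RARA (0.188) and to TSHZ1 (0.193), at larger distances. IGF2BP1 lay closest to LTV1 (0.069) and LUC7L3 (0.0701), and ARID3A to SUGT1 (0.105) and ADAT3 (0.143). None of these neighbours passed the test, which again follows the choice by pattern.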

How the data were processed

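RNA from 3 MEN1 shRNA and 3 control shRNA libraries of HUDEP-2 cells was poly(A)-selected and made into strand-specific libraries, per the labels' protocols. The submitters' processing notes name FastQC, Trimmomatic, STAR 2.7.1a, Picard 2.20.4, StringTie 2.0.4 and hg38. The sources used here do not state the annotation release or the strand setting. Each of the 6 deposited tables lists 62754 genes with TPM, FPKM and coverage. The deposited TPM values sum to 1000000 per library. The deposited FPKM is the authors' scaling by gene length and library size. The deposited coverage is the mean read depth over a gene, not scaled for library size. In control replicate 2, 3 negative residues were set to 0.

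The tables used here hold no counts, so no count model was fitted. Total aligned bases were taken from the ratio of coverage to FPKM, and read pairs of 302 bases from coverage and GENCODE v29 exon length. These pairs are estimates, and their number limits the precision of low genes. Genes at 1 TPM or more in at least 3 libraries (14294) were tested on log2(TPM + 1) with limma 3.58.1 in R 4.3.3 (lmFit, two-sided eBayes with trend). P-values were adjusted by Benjamini-Hochberg across these 14294 genes, and 0.05 was the threshold. The fit was tested on simulated data. Python 3.11.15 and pandas 2.3.3 were used for tables. Alternatives varied the pseudocount, filter, scaling, weights, replicate block and libraries used.

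The 8 genes and the lists were chosen with earlier results of these data known. Named besides them are MEN1, HBG1, HBG2 and BCL11A, overlapping rows at a mean of 1 TPM or more, the 2 nearest patterns per tested gene (mean of 5 TPM or more), and from each list up to 4 called genes with the lowest adjusted p plus up to 3 more at 2-fold or more. Some genes that the rule names are not reported here. ACTB, IGF2, H19, DGCR8, AGO3, METTL14, FTO and the rows in the closing section were named after their values were seen.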

Additional observations from a re-analysis of the deposited data

How the results depend on the processing

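No fold change of the 6 tested genes and no share difference of the IGF2BP or HMGA genes reversed direction under any of the alternatives run. The median log2 fold change of all genes tested did change sign. It was -0.0702 in the main fit, 0.00777 with median-of-ratios size factors and 0.000975 with no filter. Among the 6 of the 8 genes that were tested, ARID3A alone changed its side of the threshold. IGF2BP2 (log2 fold change -2.37 to -2.15), IGF2BP3 (0.483 to 0.653), HMGA1 (-0.791 to -0.538) and HMGA2 (-1.53 to -0.764) passed the threshold in every alternative in which they were tested. HMGA2 was not tested at a mean TPM of at least 5, where 3 of the 8 genes were called. ARID3A passed it by gene-level coverage (0.517) and without MEN1 shRNA replicate 1, and with each library left out in turn it ran from 0.218 to 0.473. By coverage, the share difference was 33.4 percentage points for IGF2BP3 (41.4 by TPM), 9.61 for IGF2BP1 (3.34) and -0.0373 for HMGA2 (-0.0843). The cause of these shifts was not tested. With each library left out in turn, 4 to 5 of the 8 genes and 6577 to 7542 of all genes were called, against 4 and 7657 with all libraries. The 32 other named genes past the threshold kept their call in all 17 alternatives. The settings using coverage were chosen after seeing the data.

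Replicate numbers are shared by the groups, but deviations of same-numbered libraries correlated at 0.017, -0.027 and -0.012, so the numbers were not taken to pair the samples. With a replicate block, 7012 genes and 4 of the 8 genes were called. Depth limits LIN28A and LIN28B, with at most 4 estimated read pairs, and HMGA2 most among the 6 of the 8 genes that were tested.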

Other observations

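RPSAP52, a pseudogene transcript that runs opposite to HMGA2 across its start, was listed at 0 in all 3 MEN1 shRNA libraries and stood at 0.206, 0.213 and 0.0745 TPM in the controls, below the level needed for a test. MIRLET7BHG, the host transcript of let-7a-3 and let-7b, stood at 1.46, 0.866 and 1.82 TPM in the knockdown, and its control values were 2.04, 1.78 and 1.54 TPM. Its groups overlapped, with a log2 fold change of -0.24 and an adjusted p of 0.32 by limma. MIRLET7A1HG and MIRLET7IHG, other let-7 host transcripts, were below the level needed for a test, and their groups overlapped. MIRLET7A1HG stood at 0.855, 0.237 and 0.531 TPM in the knockdown and at 0.150, 0.301 and 0.0979 TPM in the controls. MIRLET7IHG stood at 0.172, 0.314 and 0.320 TPM in the knockdown and at 0.168, 0.227 and 0.206 TPM in the controls.

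Tested genes with at least 1 let-7 seed match in the 3′ UTR numbered 1073. Of these, 25.2% were higher and 32.4% lower, with a median log2 fold change of -0.04, beside 23.8% higher, 36.8% lower and a median of -0.11 among the 9865 genes with no match. Genes with 3 or more matches numbered 19, of which 2 were higher and 5 lower. Matches are more frequent in longer 3′ UTRs, and these groups were not matched for length.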
